A study of Mus musculus with 2 samples.

Results

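The cells described here are intercalated cells of the newborn mouse kidney, chosen from the raw counts of single-cell RNA sequencing by the genes Atp6v1g3, Foxi1 and Atp6v0d2. The starting set was 9735 barcodes with 3000 or more UMIs (unique molecular identifiers, each standing for 1 captured transcript), 500 or more genes and no more than 20% of UMIs from mitochondrial genes, and 198 of them met the rule. The rule asked for at least 2 UMIs of Atp6v1g3, at least 2 UMIs of Foxi1 and Atp6v0d2 in sum, no Pecam1, at most 2 Col3a1 and at most 1 Slc34a1 UMI. Replicate 1 gave 127 members of 5529 barcodes, a share of 2.30% with an exact binomial (Clopper-Pearson) 95% interval of 1.92 to 2.73%. Replicate 2 gave 71 of 4206, a share of 1.69% with an interval of 1.32 to 2.12%. The mean share was 1.99% ± 0.43 (SD, n = 2), and the intervals cover counting error only.

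The study profiled kidneys of mice at P0, the day of birth, in 2 libraries, numbered here in deposit order. Both carry the genotype Rbpj c/+ ; Foxd1cre/+: they are heterozygous for the Rbpj allele written c and for a Cre recombinase at Foxd1, a gene of stromal progenitors. There was no second genotype or treatment to compare, so every comparison below is between kinds of cells within the same libraries. The labels do not say whether the libraries came from separate animals or from pools. The p-values measure only how far differences between kinds of cells vary between these libraries, pooled over the kinds fitted. That spread may be technical.

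Intercalated cells lie among the principal cells of the collecting duct and connecting tubule and move acid and base between urine and blood. Type A cells secrete protons through a vacuolar proton pump (V-ATPase) at the apical side and return bicarbonate to the blood through the exchanger encoded by Slc4a1, while type B cells secrete bicarbonate through pendrin, encoded by Slc26a4. Foxi1 is the forkhead transcription factor on which their differentiation depends, and Notch signalling is known to restrain the intercalated fate in favour of the principal one.

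Atp6v1g3, a kidney-restricted subunit of the pump stalk, lies on chromosome 1 from 138273738 to 138289462 (plus strand, GRCm38). Foxi1 lies on chromosome 11 from 34204338 to 34208089 (minus strand), and Atp6v0d2, a subunit of the membrane sector, on chromosome 4 from 19876841 to 19922605 (minus strand). The promoters of Atp6v1g3 and of Foxi1, which set the members apart by rule, and of Atp6v1b1, a renal pump subunit that the rule did not use, are shown as the 250 bases before the RefSeq start site (GRCm38.p6), 5′ to 3′ on the gene's strand. The motif GTAAACA and its reverse complement TGTTTAC, a core that forkhead factors bind, were searched on both strands and are in capitals. These windows are chr1:138273488-138273737 (plus), chr11:34208090-34208339 (minus) and chr6:83742767-83743016 (plus).
Atp6v1g3: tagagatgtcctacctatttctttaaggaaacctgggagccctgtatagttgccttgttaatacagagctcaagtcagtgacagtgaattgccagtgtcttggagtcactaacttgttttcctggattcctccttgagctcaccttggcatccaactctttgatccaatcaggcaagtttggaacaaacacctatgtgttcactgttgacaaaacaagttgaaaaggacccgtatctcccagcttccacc
Foxi1: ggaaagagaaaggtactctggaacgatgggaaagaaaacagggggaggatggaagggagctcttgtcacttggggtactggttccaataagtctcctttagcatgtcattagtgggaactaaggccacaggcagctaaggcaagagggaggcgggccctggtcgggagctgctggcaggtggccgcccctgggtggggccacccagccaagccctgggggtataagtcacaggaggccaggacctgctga
Atp6v1b1: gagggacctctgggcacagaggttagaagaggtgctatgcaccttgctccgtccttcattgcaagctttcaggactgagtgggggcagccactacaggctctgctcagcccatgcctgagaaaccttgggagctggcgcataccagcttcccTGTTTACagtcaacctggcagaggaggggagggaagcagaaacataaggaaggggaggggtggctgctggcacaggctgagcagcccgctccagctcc
The Atp6v1b1 window held 1 match, starting 98 bases before the start site, and the other 2 held none. Of 27 intercalated cell genes looked up, 17 had a promoter in the table and 1 of them, Atp6v1b1, held the motif (5.88%), beside 3.54% of all 27025 genes. A match is a description of the letters and not a shown binding site.

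The deposited matrices held 200331687 and 173166168 UMIs over 2761081 and 2545815 barcodes, and the kept barcodes had medians of 15016 and 20007.5 UMIs. Among kept barcodes, 6 sequences occurred in both libraries. The members were deeper than that, with medians of 42779 and 45346 UMIs and 7523 and 7414 genes. Their median mitochondrial share was 10.7% in replicate 1 and 11.1% in replicate 2. Scrublet, which scores likely doublets, placed 12 (9.45%) and 4 (5.63%) of them among its highest scores, against 4.43% and 3.38% of all kept barcodes, and none were removed on that ground.

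The values that chose the members were far above the thresholds in most of them. The median member had 69 Atp6v1g3 UMIs in replicate 1 and 149 in replicate 2, and only 3 and 4 members had 2 to 4. Just inside the limits lay 2 barcodes in replicate 1 and 4 in replicate 2, whose Atp6v1g3 level was 6516 and 56.1 CPM (UMIs of the gene per 1000000 UMIs of the summed barcodes). Just outside lay 10 and 17 barcodes at 83.9 and 105 CPM, with Foxi1 at 42.8 and 57.8 CPM. Of 152 and 102 barcodes that met the positive markers, 17 and 21 fell out for Pecam1, 2 and 8 for Col3a1 and 9 and 7 for Slc34a1, some for more than 1 of them. Known markers outside the rule went with the label: of 13 other intercalated cell markers, 13 had their lower library above both libraries of each of 4 neighbouring epithelial gates. The share of all genes that meet this criterion was not counted. Against the principal gate alone, 12% of all tested genes were called higher in the members. Hepacam2, a marker of intercalated cells in single-cell surveys, was at 125 and 160 CPM in the members against 0.423 and 3.82 CPM in the principal gate.

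The members are compared with barcodes gated in the same way for other epithelia. The principal gate (Aqp2 at least 5 UMIs, with at least 2 of Hsd11b2, Fxyd4, Scnn1b and Scnn1g in sum) held 78 and 48 barcodes. The loop gate (Slc12a1 at least 5) held 274 and 320, the connecting tubule gate 35 and 48, and the ureteric tip gate 41 and 28. All of them left the members out. The genes that define any of these gates were kept out of the tests.

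A large part of the members also carried principal cell genes, which touches every comparison that follows. Aqp2, the vasopressin-regulated water channel of principal cells, reached 5 UMIs in 59 of 127 members (46.5%) and 30 of 71 (42.3%), and each of these met the principal gate too. They were much deeper, with medians of 76429 and 74272 UMIs against 19764 and 30004 in the 42 and 30 members without any Aqp2. Fxyd4, a regulator of the sodium pump, stood at 694 and 779 CPM in the members with Aqp2, at 25.6 and 10.6 CPM in those without, and at 1297 and 1591 CPM in the principal gate. Atp6v1g3 went the other way, with 1074 and 1528 CPM against 3224 and 5960 CPM in the members without Aqp2. Elf5, a transcription factor of principal cells, was at 93.0 and 77.7 CPM with Aqp2 and at 8.20 and 5.30 CPM without it, beside 184 and 184 CPM in the principal gate. Of the members with at least 5 Aqp2 UMIs, 5 of 59 (8.47%, 95% interval 2.81 to 18.7%) and 4 of 30 (13.3%, 3.76 to 30.7%) were among the highest Scrublet scores. The shares of all kept barcodes were 4.43% and 3.38%, and the interval of replicate 1 covers its value. In replicate 1 the highest scores also held 2 of 42 members without Aqp2 and 5 of 26 with 1 to 4 Aqp2 UMIs. In replicate 2 these were 0 of 30 and 0 of 11, so only replicate 2 set the members with Aqp2 apart. As background, Aqp2 was seen in 8.01% and 12.9% of stroma barcodes (medians of 11991 and 16980 UMIs), a cell type that should lack it, against 66.9% and 57.7% of the members. Whether these barcodes are cells with both programmes or 2 cells in 1 droplet was not tested, so the main results are also given for the 68 and 41 members outside the principal gate.

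**Figure D1:**
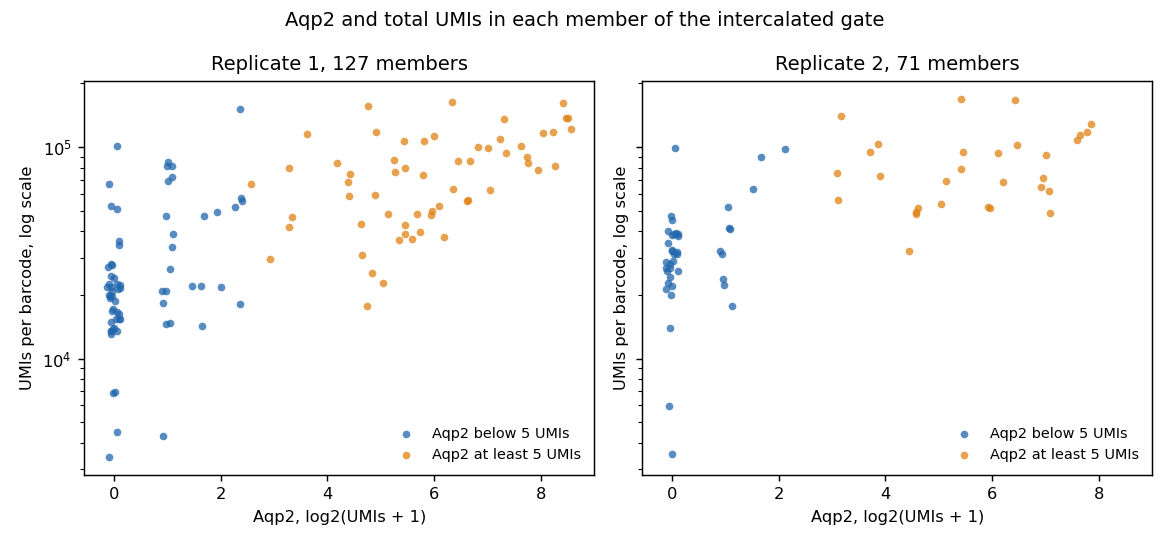
Each point is 1 member of the intercalated gate, in replicate 1 (left, 127 members) and replicate 2 (right, 71 members). The x axis gives Aqp2 as log2(UMIs + 1) with a small random shift, and the y axis the UMIs of the barcode on a log scale. Members with at least 5 Aqp2 UMIs (orange) have a median of 76429 and 74272 UMIs, above most of the others.

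Genes of other segments were found too. Calb1, a calcium-binding protein of the connecting tubule, reached 5 UMIs in 57 (44.9%) and 32 (45.1%) members, about as often as Aqp2, and the proximal endocytosis receptors Lrp2 and Cubn reached 5 UMIs in sum in 21 and 11. Slc12a3, the cotransporter of the distal convoluted tubule, had at least 3 UMIs in 26 and 10 members, and Slc12a1 of the loop of Henle at least 5 in 4 and 3. The nephron progenitor genes Six2 and Cited1 reached 2 UMIs in 6 and 2 members. Summed markers of endothelium were at 19.5 and 23.3 CPM over 8 genes, those of macrophages at 36.2 and 22.6 CPM over 8 genes and those of stroma at 38.0 and 67.9 CPM over 11 genes. The principal gate held 23.7 and 25.5, 47.8 and 191, and 17.8 and 36.9 CPM of the same lists. Markers of the loop and distal tubule summed to 1062 and 798 CPM over 5 genes against 21.2 and 40.1 CPM in the principal gate, with Tmem52b at 677 and 433 CPM. Markers of the proximal tubule summed to 948 and 1726 CPM over 8 genes against 102 and 120 CPM, of which Fxyd2, a sodium pump regulator also used by distal segments, gave 889 and 1684 CPM. Podocyte markers summed to 47.6 and 111 CPM against 14.4 and 17.8 CPM in the principal gate. Nephron progenitor markers stood at 26.4 and 5.01 against 17.8 and 35.6 CPM, and neural markers at 12.1 and 7.77 against 21.2 and 13.4 CPM. Leaving out the members with loop, distal convoluted, nephron progenitor or podocyte genes gave 95 and 58 members, with 2297 in place of 3035 genes called against the principal gate.

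Most pump genes were higher in the members than in the principal gate. The 3 tested renal and epithelial isoforms had a median log2 difference of 3.96, against 1.03 for 18 widely expressed subunits. The lists overlapped, since Atp6v1b1 rose no more than the widely expressed Atp6v1a given below. Atp6v1b1, the kidney and inner ear form of the B subunit, was at 242 and 294 CPM (mean 268 ± 37.0, SD, n = 2) against 32.2 and 45.8 CPM. The groups did not overlap, and the log2 difference was 2.86 (SE 0.20, edgeR adjusted p = 4.2e-06). Atp6v1c2 had 306 and 256 CPM against 1.69 and 2.55 CPM, a log2 difference of 7.15 (SE 0.53, edgeR adjusted p = 5e-06). Atp6v0a4, whose loss causes distal renal tubular acidosis, had 413 and 565 CPM against 28.4 and 36.9 CPM, a log2 difference of 3.96 (SE 0.32, edgeR adjusted p = 1e-05). These 3 testable isoforms all rose, beside 12% of the 12975 genes tested that were called higher and 11.4% called lower (23.4% in all). The same shares are the background for every list set against the principal gate below. They were also higher than in the loop gate, by 2.61, 4.85 and 2.12 on the log2 scale, a comparison in which 27.7% of genes were called, 13.4% higher and 14.3% lower. Without the members in the principal gate the 3 differences from the principal gate were 3.36, 7.78 and 4.58. Atp6v1g3 and Atp6v0d2, which chose the members, were at 4.23 and 14 CPM and at 22.4 and 15.3 CPM in the principal gate.

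Most of the subunits that other cells use as well were also higher. Of 18 tested, 13 were higher than in the principal gate, none was lower by this test and 5 did not pass, with a median log2 difference of 1.03 against -0.05 over all tested genes. Atp6v1a, the catalytic A subunit, was at 892 and 998 CPM against 116 and 146 CPM, a log2 difference of 2.91 (SE 0.14, edgeR adjusted p = 3.8e-07). Atp6v0c, the proteolipid of the rotor ring, had 1134 and 2060.4 CPM against 228 and 313 CPM, with the higher value in replicate 2 of both gates. Atp6v1d and Atp6v1e1 were higher by 2.41 and 2.53. Some a and d subunits of other organelles did not pass. Atp6v0a1 was at 61.9 and 53.4 CPM against 57.5 and 66.8 CPM (edgeR adjusted p = 0.936), and Atp6v0d1 at 85.0 and 81.2 CPM against 67.3 and 83.4 CPM (edgeR adjusted p = 0.264). Against the loop gate 10 of the 18 were higher and 8 did not pass.

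**Figure D2:**
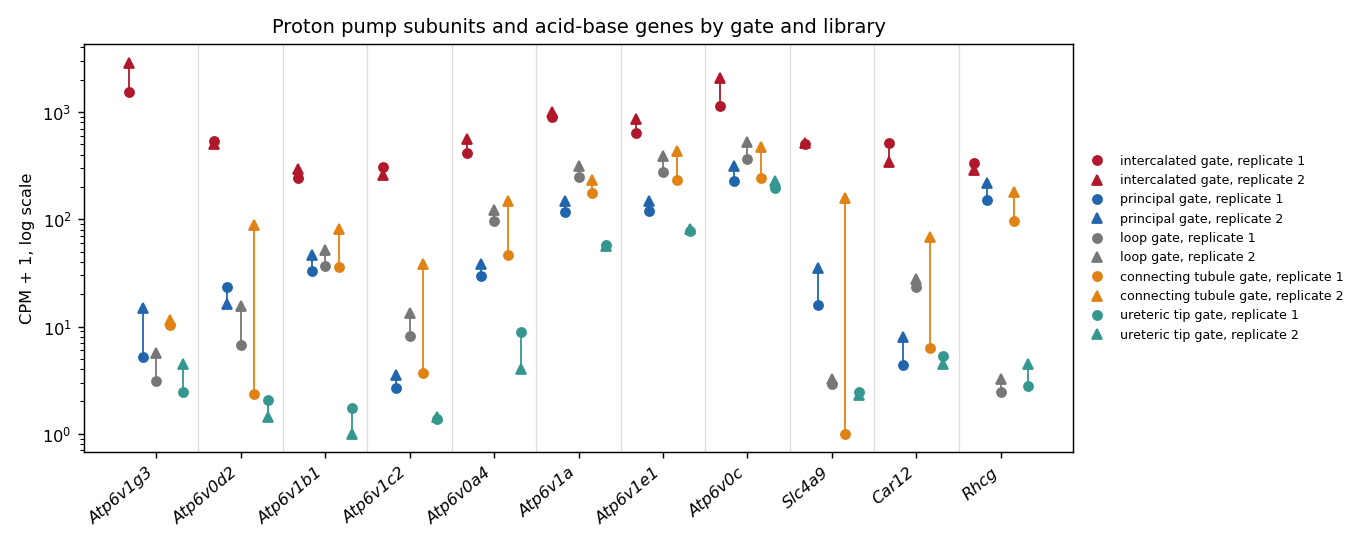
Each pair of points gives the level of 1 gene in 1 gate, as CPM plus 1 on a log scale, for replicate 1 (circle) and replicate 2 (triangle) of the intercalated, principal, loop, connecting tubule and ureteric tip gates. Atp6v1g3 and Atp6v0d2 chose the members, so their separation follows from the rule. For the other pump subunits shown, both libraries of the intercalated gate (red) lie above both libraries of the other 4 gates. Rhcg in the principal gate, at 150 and 218 CPM, comes close to the 332 and 289 CPM of the members. Replicate 2 of the connecting tubule gate holds Slc4a9 at 157 CPM and replicate 1 holds none.

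Transporters and enzymes of acid-base handling followed. Of 17 tested, 11 were higher than in the principal gate, 1 was lower and 5 did not pass, with a median log2 difference of 1.70. Slc4a9, a basolateral anion exchanger of intercalated cells, was at 506 and 515 CPM against 14.8 and 34.4 CPM, a log2 difference of 4.60 (SE 0.63, edgeR adjusted p = 0.00035). Car12, a membrane-bound carbonic anhydrase, had 516 and 339 CPM against 3.39 and 7 CPM, and Car2, the cytosolic form, had 671 and 751 against 233 and 220 CPM (log2 differences 6.51 and 1.70). Rhbg, the basolateral ammonia channel, had 160 and 205 CPM against 5.50 and 15.3 CPM. Its apical relative Rhcg was at 332 and 289 CPM against 150 and 218 CPM, a log2 difference of 0.86 (edgeR adjusted p = 0.00743) that fell to 0.63 without the members in the principal gate (edgeR adjusted p = 0.0847). Slc4a1 was counted 1043 times in the members and 1 time in the principal gate, a ratio of 383 with a counting interval of 68.6 to 15150. Slc4a4, the sodium bicarbonate cotransporter of other tubule segments, fell by 1.22 on the log2 scale.

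Genes of chloride, potassium and water handling were part of the same profile. Clcn5, an endosomal chloride exchanger, had 589 and 566 CPM against 67.7 and 49.6 CPM in the principal gate and 118 and 101 CPM in the loop gate. Aqp6, a water and anion channel of type A vesicles, was counted 911 times in the members and 1 time in the principal gate, a ratio of 335 with a counting interval of 59.9 to 13240. Of the 12 tested genes of this list, 7 were higher, 1 was lower and 4 did not pass, with a median log2 difference of 0.96.

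Among transcription factors 9 of 14 were higher than in the principal gate, 2 were lower and 3 did not pass (median log2 difference 1.14). Against the loop gate 8 were higher, 4 did not pass and 2, Tfap2b and Esrrb, were lower. Both of these were among the 9 higher than in the principal gate. Tfcp2l1, which acts in both cell kinds of the collecting duct, was at 1346 and 1387 CPM against 727 and 554 CPM, a log2 difference of 1.16 (SE 0.13, edgeR adjusted p = 0.00012). Dmrt2, a factor of type A cells, had 110 and 104 CPM against 0.423 and 8.27 CPM. Ppargc1a, a regulator of mitochondrial biogenesis, had 466 and 299 CPM against 135 and 88.4 CPM. Gata3, needed in the ureteric lineage, was at 415 and 259 CPM against 670 and 410 CPM, so the groups overlapped, and it fell by 0.62 on the log2 scale (edgeR adjusted p = 0.0375). Without the members in the principal gate Gata3 fell by 1.86, at 167 and 106 CPM.

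Receptors separated the members from the principal gate in both directions. The vasopressin receptor Avpr1a was counted 537 times in the members and 1 time in the principal gate, a ratio of 197 with a counting interval of 35.3 to 7809. The other vasopressin receptor, Avpr2, which drives water reabsorption in principal cells, went the other way, at 26.9 and 24.1 CPM against 71.5 and 56.6 CPM (log2 difference -1.28, edgeR adjusted p = 0.0138). Outside the principal gate the members held only 1.42 and 4.81 CPM of Avpr2, a log2 difference of -4.37. Oxgr1, the receptor for oxoglutarate, was at 88.7 and 74.7 CPM and was not counted in the principal gate, at least 109.5-fold higher taking 3 counts over that gate as the floor. Kit, the stem cell factor receptor, was at 316 and 325 CPM against 3.39 and 4.45 CPM, and Egfr at 16.2 and 14.3 CPM against 71.5 and 55.4 CPM. Of 13 tested receptors 8 were higher, 2 were lower and 3 did not pass. The median log2 difference was 2.78 with genes at 3 or fewer counts set at their bounds.

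Nuclear genes of mitochondrial energy metabolism were higher than in the principal gate for 35 of 35 tested, with a median log2 difference of 0.99. Cs, citrate synthase, had 189 and 254 CPM against 96.5 and 125 CPM, and Atp5b, a subunit of the mitochondrial ATP synthase, 1338 and 1708 CPM against 688 and 899 CPM. Against the loop gate 1 gene was higher in the members, 5 were lower and 29 did not pass, with a median log2 difference of -0.13. That is a smaller share of calls than the 27.7% over all genes tested against that gate. The higher one was Ckmt1, a mitochondrial creatine kinase, at 138 and 229 CPM against 40.7 and 70.8 CPM. The median mitochondrial share of UMIs, 10.7% and 11.1%, was above that of the principal gate (8.20% and 9.02%), and that of the loop gate was 12.2% and 11.1%.

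Cell cycle genes were mostly lower. Of 41 tested, 27 were lower than in the principal gate, 1 was higher and 13 did not pass, with a median log2 difference of -1.22. Top2a, a topoisomerase of dividing cells, was at 35.7 and 29.6 CPM against 122 and 103 CPM. The gene that rose was Cdkn1a, a cell cycle inhibitor, at 65.2 and 59.9 CPM against 21.2 and 39.5 CPM (log2 difference 1.17, edgeR adjusted p = 0.0217). Outside the principal gate 12 of the 41 were lower, 1 was higher and 28 did not pass. At least 3 UMIs of Mki67 and Top2a in sum were found in 21 of 127 (16.5%) and 9 of 71 (12.7%) members, beside 73.2% and 78.6% in the ureteric tip gate. The principal gate, which is shallower, had 8.97% and 18.8%.

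The genes of the defence list included Defb1, a beta-defensin, at 1325 and 1414 CPM in the members against 10.2 and 50.9 CPM in the principal gate. Its log2 difference was 5.74 (SE 0.36, edgeR adjusted p = 2.1e-06), and it was 5.29 against the loop gate. The connecting tubule gate held 910 and 1032 CPM. Of the 5 tested members of the list Defb1, Wfdc2 and Spp1 were higher, Lcn2 was lower and 1 did not pass. Wfdc2 and Lcn2 were no longer called without the members in the principal gate (edgeR adjusted p = 0.815 and 0.252).

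The remaining lists tell how far the members share the profile of their neighbours. Of 12 tested principal cell genes 4 were higher than in the principal gate (Scnn1a, Fxyd2, Kcnj1 and Kcnj10, all channels or a pump regulator), 7 were lower and 1 did not pass, with a median log2 difference of -0.76. Of 13 ureteric epithelium genes 9 were lower and 4 did not pass, among them Krt8, a keratin, which fell by 1.22, and Wnt9b, a secreted signal, which fell by 1.62. Of 11 distal nephron genes 6 were higher and 5 did not pass. For the members outside the principal gate 10 were higher than in that gate and 1, Tfap2a, was lower. With all members, 4 were higher than in the loop gate, 4 were lower and 3 did not pass. Against the principal gate 3 of 9 claudin and barrier genes were lower, and of 13 stress genes 2 were higher and 1 was lower. Over all tested genes 23.4% were called, so stress genes were called about as often as others. The type A markers were higher for 6 of 6 and the joint list of type B and non-A non-B markers for 7 of 8. These lists come from known intercalated cells and are close to the rule.

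The rule for named genes, which ranks fitted log2 differences, picked genes with no UMI in the principal gate, where the fitted value is no bound and the order is not a ranking of size. Beside Oxgr1 these were Gm12121, Rgs7bp, Sall3, Gm47795, Gm47662, Esrrb, Tldc2, Cyp1a1 and Slc2a4. DESeq2 did not call Gm12121, Gm47795, Gm47662, Tldc2 and Cyp1a1 (adjusted p from 0.133 to 0.343). Gm12121, an unnamed locus, was counted 1059 times in the members and was at least 129.7-fold higher. Esrrb, an orphan nuclear receptor, was at least 21.4-fold higher than in the principal gate but was called lower than in the loop gate. Sall3 was at 29.0 and 17.0 CPM and Slc2a4, an insulin-responsive glucose transporter, at 11.6 and 18.5 CPM. Both were also present in the loop gate, at 31.6 and 28.4 CPM and at 12.9 and 23.6 CPM. On the lower side stood Xkr4, Hbb-bs, Hba-a2, Gm15155, B4galnt2, Aqp5, Ecrg4, 9230110F11Rik, Col11a1 and Slc14a2. Aqp5, a water channel, was at 1.64 and 1.25 CPM in the members against 13.1 and 12.7 CPM. Slc14a2, the urea transporter of the inner medullary duct, was at 66.0 and 10.3 CPM against 223 and 206 CPM, and outside the principal gate at 1.42 and 0.687 CPM. The haemoglobin genes rest on 1 library: red cell markers of the principal gate summed to 2665 and 66.2 CPM, beside 147 and 176 CPM in the members. That list includes Slc4a1, which alone gave 87.5 CPM of the members' sum in replicate 1. The sums are therefore no measure of red cell RNA in the members. B4galnt2, at 21.6 and 0.636 CPM in the principal gate, rests on the same library.

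Rbpj, of which the genotype holds 1 allele written c, acts in the Notch pathway. Whether that allele was changed in the members was not tested. Genes of the pathway were called about as often as other genes, 5 of 18 (3 higher and 2 lower) beside 23.4% of all tested genes. The 3 higher ones were ligands. Jag1 was at 102 and 75.7 CPM against 61.4 and 40.1 CPM (log2 difference 0.85, SE 0.22, edgeR adjusted p = 0.0157). Dll1 was at 12.5 and 12 CPM against 3.81 and 1.27 CPM (log2 difference 2.20, edgeR adjusted p = 0.0126), and Dll4 at 7.59 and 5.76 CPM against 0.423 and 1.91 CPM (log2 difference 2.75, edgeR adjusted p = 0.0306, DESeq2 adjusted p = 0.116). A principal gate at 2 Aqp2 UMIs turned the Dll1 difference to -0.63 (edgeR adjusted p = 0.469) and lowered that of Jag1 to 0.38 (edgeR adjusted p = 0.31).

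Among the receptors, Notch2 was at 54.0 and 31.8 CPM against 96.1 and 70.0 CPM and Notch3 at 45.3 and 37.3 CPM against 72.4 and 56.6 CPM (log2 differences -0.90 and -0.59, edgeR adjusted p = 0.00511 and 0.0101). Outside the principal gate the members held 39.2 and 10.3 CPM of Notch2 and 14.2 and 12.4 CPM of Notch3, with log2 differences of -1.61 and -2.17. Notch1, at 24.9 and 22.6 CPM against 26.7 and 20.4 CPM, did not pass. The target Hes1 was at 241 and 217 CPM against 223 and 193 CPM (edgeR adjusted p = 0.352), and at 180 and 176 CPM in members outside the principal gate. Rbpj itself was at 55.1 and 45.9 CPM against 63.9 and 61.7 CPM (edgeR adjusted p = 0.21). Foxd1, which drives the Cre, had 4 and 7 UMIs in all members together. The other 13 of the 18 tested genes did not pass, and the median log2 difference was -0.05, as over all tested genes.

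**Figure D3:**
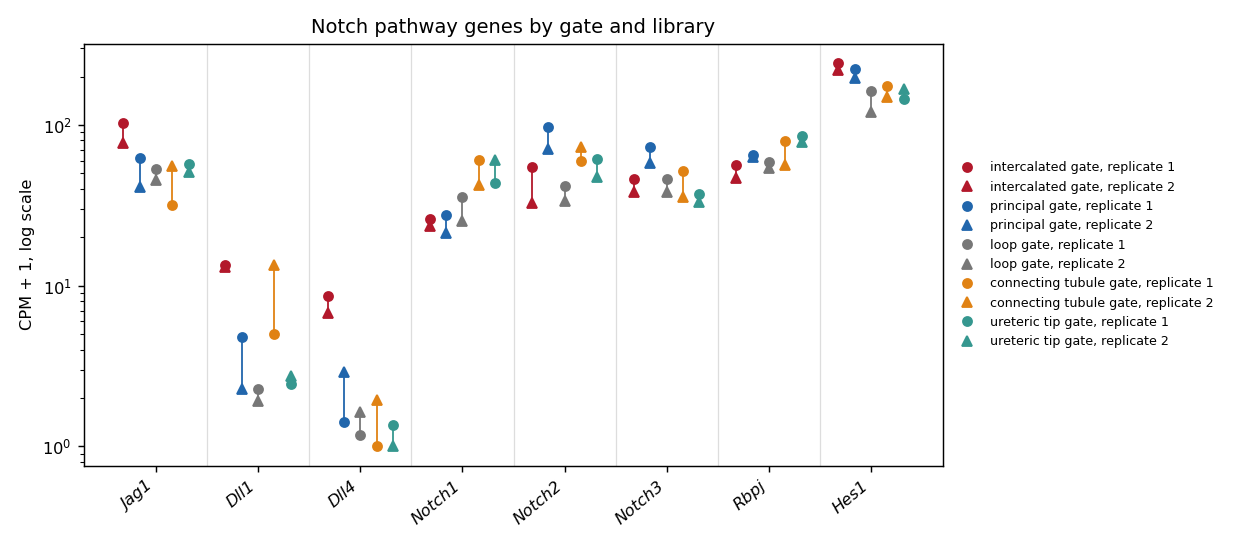
Levels of 8 Notch pathway genes as CPM plus 1 on a log scale, for replicate 1 (circle) and replicate 2 (triangle) of the same 5 gates. The ligands Jag1 and Dll4 have both libraries of the intercalated gate above those of every other gate shown, Dll1 overlaps with the connecting tubule gate (3.99 and 12.4 CPM), and Rbpj lies in a narrow range.

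The members were next divided by the 2 exchangers of the textbook types, Slc4a1 (chromosome 11, 102348824 to 102366203, minus strand) and Slc26a4 (chromosome 12, 31519827 to 31559969, minus strand). In replicate 1 74 members had Slc4a1 and no Slc26a4 (58.3%), 16 had Slc26a4 and no Slc4a1 (12.6%), 13 had both and 24 neither. In replicate 2 the numbers were 41 (57.7%), 12 (16.9%), 3 and 15. Members with only Slc4a1 outnumbered those with only Slc26a4 in both libraries. In the stroma gate Slc4a1 appeared in 0.534% and 0.566% of barcodes and Slc26a4 in 0.401% and 0.453%. With every barcode thinned to 3000 UMIs, Slc4a1 was seen in 17.3% and 29.6% of members and Slc26a4 in 16.5% and 14.1%, in place of 68.5% and 62.0% and of 22.8% and 21.1% unthinned. The shares move with depth, more for Slc4a1, whose median was 2 and 1 UMIs, and after thinning the 2 genes were seen about equally often in replicate 1.

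**Figure D4:**
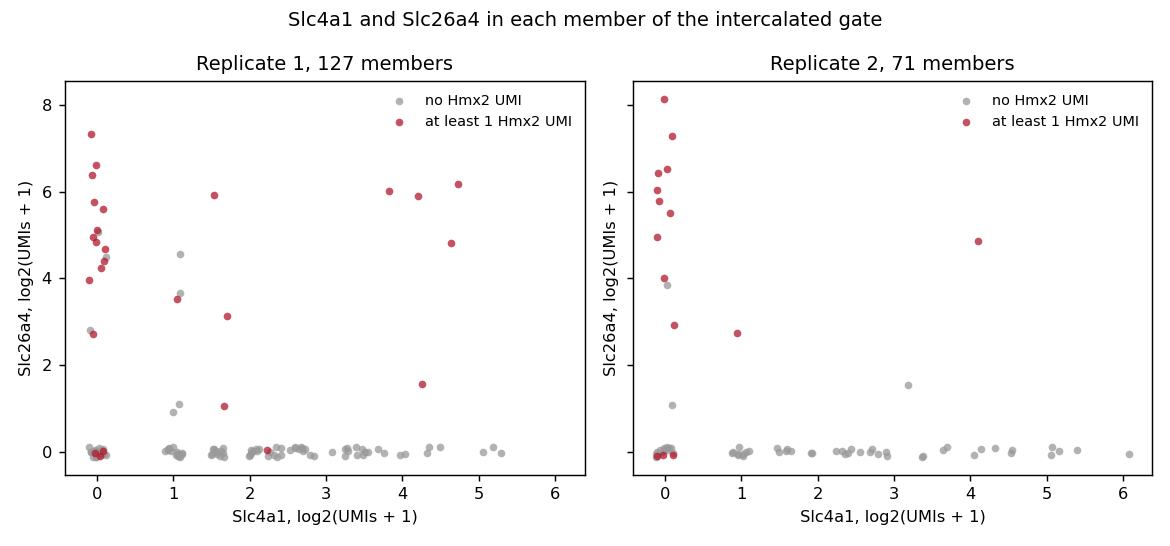
Each point is 1 member, placed by its Slc4a1 (x axis) and Slc26a4 (y axis) UMIs as log2(UMIs + 1) with a small random shift, for replicate 1 (left) and replicate 2 (right). Most members lie along 1 of the axes, and those with at least 1 Hmx2 UMI (red, 26 and 15 members) mostly carry Slc26a4 too (22 and 12 of them).

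For a test, the Slc4a1 subset was set at 2 or more Slc4a1 UMIs without Slc26a4 (59 and 32 members) and the Slc26a4 subset at 2 or more Slc26a4 UMIs without Slc4a1 (16 and 11 members). The 2 genes that made the subsets were not tested. Of 12736 tested genes 134 were called (1.05%), 50 higher in the Slc4a1 subset (0.393%) and 84 higher in the Slc26a4 subset (0.66%). The subsets' median depths were 49646 and 40796 UMIs against 38224 and 51614 UMIs. Outside the principal gate lay 32 of 59 and 23 of 32 members of the Slc4a1 subset, against 7 of 16 and 5 of 11 of the Slc26a4 subset. What this difference in principal cell genes adds to the calls was not tested.

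The Slc4a1 subset held more of 4 of the 5 tested type A markers, Aqp6, Kit, Dmrt2 and Adgrf5. Slc26a7, a chloride-bicarbonate exchanger of the basolateral side, had the widest difference, at 109 and 72.6 CPM against 7.49 and 1.45 CPM (log2 difference 4.37, SE 0.51, edgeR adjusted p = 0.00081). Dmrt2 (chromosome 19, 25672411 to 25678991, plus strand) was at 114 and 116 CPM against 25.5 and 4.36 CPM (log2 difference 2.99, edgeR adjusted p = 0.0165, DESeq2 adjusted p = 0.401). Kit was at 398 and 431 CPM against 154 and 90.1 CPM, and Adgrf5, an adhesion receptor, at 819 and 829 CPM against 162 and 55.2 CPM. Aqp6 was at 139 and 103 CPM against 21.0 and 23.3 CPM. Clcn5 followed at 689 and 753 CPM against 238 and 237 CPM, and Adra1a, an alpha-adrenergic receptor, at 136 and 155 CPM against 19.5 and 13.1 CPM (log2 difference 3.19, edgeR adjusted p = 0.00074). For each of these genes the libraries of 1 subset lay wholly above those of the other. Defb1 was at 1674 and 2199 CPM against 493 and 602 CPM, a log2 difference of 1.85.

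The list for the other side joins markers of type B and of non-A non-B intercalated cells and does not separate them. Of its 7 tested genes 2, Hmx2 and Insrr, were higher in the Slc26a4 subset and 5 did not pass. The median log2 difference was 0.29, towards the Slc4a1 subset, against 0.02 over all tested genes. Oxgr1, one of the 5, was at 58.4 and 26.2 CPM in the Slc26a4 subset against 99.9 and 99.4 CPM. The homeobox genes Hmx2 and Hmx3 were higher in the Slc26a4 subset. Hmx2 (chromosome 7, 131548773 to 131558014, plus strand) was counted 643 times in the Slc26a4 subset, at 453 and 496 CPM, and 1 time in the Slc4a1 subset, a ratio of 2365 with a counting interval of 423 to 93560. Hmx3 had 29 UMIs against none, at least 35.6-fold higher. In members of the Slc26a4 subset Hmx2 was seen in 13 of 16 and 10 of 11, and Dmrt2 in 2 of 16 and 2 of 11. In the Slc4a1 subset Hmx2 was seen in 1 of 59 and 0 of 32, and Dmrt2 in 57 of 59 and 30 of 32. Insrr, a receptor that senses alkaline pH, was at 214 and 129 CPM against 25.7 and 30.7 CPM (log2 difference -2.60, edgeR adjusted p = 0.00272). Tldc2 was at 165 and 69.8 CPM and was not counted in the Slc4a1 subset, at least 193.7-fold higher (edgeR adjusted p = 0.00034, DESeq2 adjusted p = 0.52).

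The Notch ligand Dll1 (chromosome 17, 15367354 to 15376872, minus strand) was among the 8 widest differences on this side. It was at 55.5 and 29.1 CPM in the Slc26a4 subset against 3.76 and 1.68 CPM in the Slc4a1 subset, a log2 difference of -3.83 (SE 0.57, edgeR adjusted p = 0.00459). The principal gate held 3.81 and 1.27 CPM. Jag1, at 156 and 109 CPM against 88.6 and 69.8 CPM, did not pass (edgeR adjusted p = 0.204). The other 16 tested Notch genes did not pass either.

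The pump itself did not separate the subsets by this test. Atp6v1b1 was at 245 and 312 CPM in the Slc4a1 subset and 310 and 249 CPM in the Slc26a4 subset (edgeR adjusted p = 1), and none of 3 renal isoforms and none of 18 widely expressed subunits passed. At an SE of 0.23 on the log2 scale for Atp6v1b1, small differences would not be detected. Slc4a9, often used as a type B marker, was at 424 and 379 CPM against 950 and 833 CPM, with no overlap, but did not pass (log2 difference -1.12, SE 0.54, edgeR adjusted p = 0.396).

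**Figure D5:**
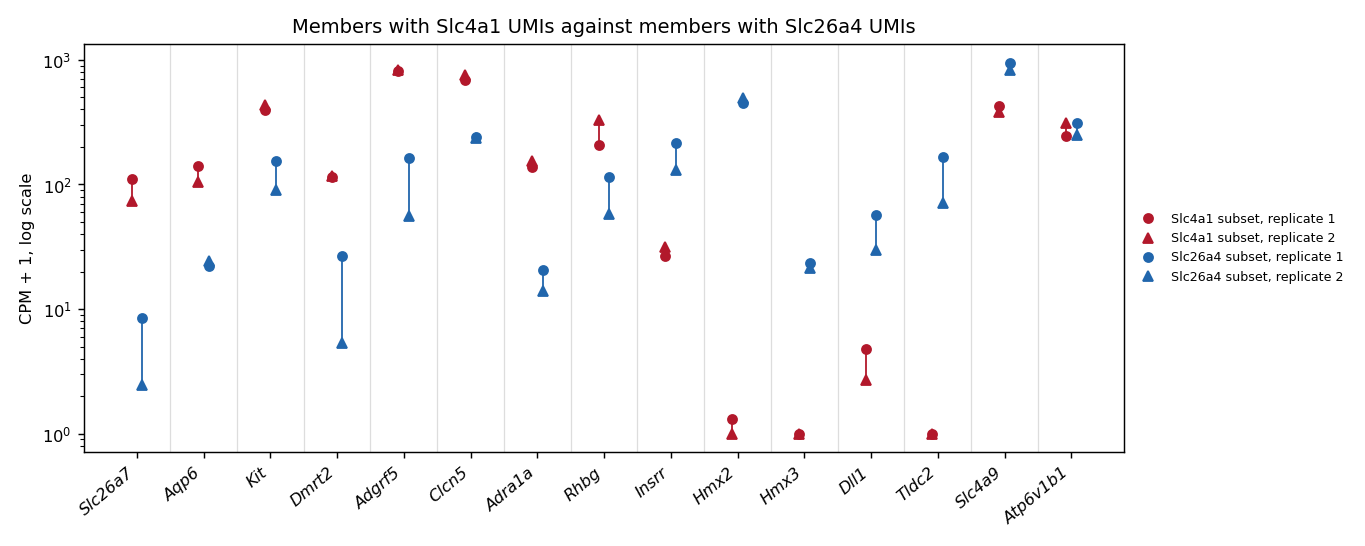
Levels as CPM plus 1 on a log scale in the Slc4a1 subset (red) and the Slc26a4 subset (blue), for replicate 1 (circle) and replicate 2 (triangle). The genes from Slc26a7 to Rhbg are higher in the Slc4a1 subset, those from Insrr to Tldc2 in the Slc26a4 subset, Slc4a9 did not pass the test, and the libraries overlap for Atp6v1b1.

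Some calls of this comparison moved with genes of other segments. Slc12a1 itself was at 261 and 715 CPM in the Slc26a4 subset against 61.4 and 15.1 CPM in the Slc4a1 subset. Leaving out members with genes of other segments kept 15 of 16 and 10 of 11 members of the Slc26a4 subset. In the Slc4a1 subset it kept 39 of 59 and 25 of 32. All kept members had under 5 Slc12a1 UMIs, so the level in the Slc26a4 subset rests mostly on a single barcode per library. Podocyte markers went the other way, at 18 and 20.4 CPM against 76.1 and 223 CPM. Trpm6, a magnesium channel of the distal convoluted tubule, was at 69.5 and 72.0 CPM in the Slc4a1 subset against 5.99 and 26.2 CPM in the Slc26a4 subset. Its log2 difference of 2.16 became -0.55 once members with genes of another segment were left out (edgeR adjusted p = 0.86). Klk1, a kallikrein of the connecting tubule and also higher in the Slc4a1 subset, went from 3.35 to 0.58 (edgeR adjusted p = 0.865). Umod, the loop of Henle protein uromodulin, was at 12 and 108 CPM in the Slc26a4 subset against 3.44 and 5.03 CPM, so that replicate 2 carried most of the difference, and it went from -3.69 to -0.20 (edgeR adjusted p = 0.973). Defb1 went from 1.85 to 1.21 (edgeR adjusted p = 0.205), and Rhbg from 1.62 to 1.54 (edgeR adjusted p = 0.095).

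A few members carried both exchangers at 2 UMIs or more, 7 in replicate 1 and 2 in replicate 2. All 7 and 1 of the 2 also had Hmx2, and all of them had Dmrt2. None was among the highest Scrublet scores, and they were deep: the 7 had 46813 to 109640 UMIs, all above the median member of replicate 1, and the 2 had 31774 and 94090. Whether they are single cells was not tested.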

How the data were processed

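Single-cell suspensions of P0 kidney were sequenced from the 3′ end on the Chromium system, per the labels. The deposited values are raw UMI counts per gene and barcode for all barcodes. The file headers name Cell Ranger 4, while the submitters' processing notes name Cell Ranger 6.0.1 and mm10. No cell calls were used here, and barcodes were gated on the deposited counts as the report states. Counts were summed per library and gate, since cells are not replicates. Sums of gates with at least 20 barcodes in both libraries entered edgeR 4.0.16 (limma 3.58.1, R 4.3.3) with TMM scaling, filterByExpr and the library as a block. Subsets needed at least 10 barcodes. Quasi-likelihood F tests were two-sided, with Benjamini-Hochberg adjustment over all tested genes and a threshold of 0.05. Standard errors are the log2 difference over the square root of F. The fit was tested on simulated data. The distal convoluted gate had 15 barcodes in replicate 1 and stayed out.

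The members, lists and tests were chosen with earlier results of these data known, and the removal of members that carry other genes was added after the counts had been seen. Named genes are those of the fixed lists, the 10 highest and 10 lowest log2 differences against the principal gate (at least 50 UMIs, the same sign in both libraries) and the 8 and 8 between the subsets (at least 20 UMIs). CPM are UMIs of a gene per 1000000 UMIs of the sum. Same-library deviations correlated across 9521 genes between the intercalated gate and the principal, loop, connecting tubule and ureteric tip gates at 0.40, 0.50, 0.30 and 0.26, and gates of 1 library come from the same suspension, so the library block is part of the main fit. Scrublet ran in scanpy 1.11.5 on Python 3.11.15, and the highest 0.8% per 1000 barcodes were marked. Alternatives covered scaling, tool (DESeq2 1.42.0), filter, block, depth, doublets and gate limits. Counts limit precision: a gene listed at 0 has a floor of 3 counts. Results for some genes are not reported here.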

Additional observations from a re-analysis of the deposited data

How the results depend on the processing

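Thinning every barcode to 3000 UMIs left 1010 calls against the principal gate, 1232 against the loop gate and 36 between the subsets, where the full depth gave 3035, 3594 and 134. That setting tests fewer genes (5101 and, for the subsets, 4381). With no replicate block 1756, 2367 and 32 genes were called. Between the subsets DESeq2 called 264 genes, a fit with no filter on low counts 681, and the subsets without members carrying genes of other segments 84. All other settings stayed within 1.5 times, from 2293 to 4225 calls against the principal gate, where the highest used only the 2 gates compared. The subsets could not be fitted once the highest Scrublet scores or the members in the principal gate were removed, because under 10 members were left. The mean share of members moved from 1.99% to 2.46% at 10000 UMIs, 2.52% under the looser gate, 1.10% without the members in the principal gate, 1.55% without those carrying genes of other segments and 0.847% without both. Leaving out 1 library gave 1.69 to 2.30%. Among the genes whose values are given and that were refitted, reversed signs were those of Dll1 (-0.63) and Aqp3 (0.12) with 2 Aqp2 UMIs in the principal gate, Hes1 (-0.16 thinned, -0.10 outside the principal gate), Trpm6 (-0.55 without genes of other segments) and Atp6v1b1 between the subsets (0.0091 under the looser gate, 0.0091 with no filter, 0.034 without genes of other segments, 0.035 with no replicate block). Over all genes, of 2211 called both in the main analysis against the loop gate and without the members in the principal gate, 2204 had the same direction, and without both kinds of members 2370 of 2403 (2337 of 2353 against the principal gate). Wnt7b was called higher than in the loop gate with all members and lower without those in the principal gate. The causes were not tested. Among single genes, DESeq2 ended the calls of Gm12121, Gm47795, Gm47662, Tldc2, Cyp1a1, B4galnt2 and Dll4 against the principal gate and of Dmrt2, Hs6st3, Tldc2 and Umod between the subsets. Leaving out a library leaves no residual degrees of freedom for these gates, so the counts of calls have no such value.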
